A study of Rattus norvegicus with 12 samples.

Results

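The transferrin receptor gene Tfrc and 8 further genes of cellular iron handling were followed in cultured rat Schwann cells, the glia of peripheral nerve. They were taken by gene name from a deposited table of 30957 genes, and 8 of the 9 names had a row: Tfrc, Fth1, Slc11a2, Ireb2, Aco1, Steap3, Ncoa4 and Fbxl5. Slc40a1, the gene of the iron exporter ferroportin, was not analysed here. The names were chosen with the levels and the differences of these genes between the 4 groups already known, that is, selected on the CPM values reported here, so all of those values are descriptions. No p-value is printed for a member, and where members are counted as called the counts and calls are no evidence for them. The groups were BxTAM (Schwann cells co-cultured with tumour-associated macrophages, TAMs, induced with BxPC-3, a pancreatic cancer line), MiaTAM (the same with the pancreatic cancer line MIA PaCa-2), MDM (co-culture with what the source name calls MDMs, though these libraries are titled PBMC and their treatment field reads untreated) and untreated cells alone, titled Rsc96 in the labels. Each group had 3 RNA sequencing libraries, and total counts ran from 16555215 to 21506669 per library. No label states that libraries of a group are separate cultures, so p-values below measure spread among these libraries only, and that spread may be technical. The sources used here do not give the species of the macrophages, the length of co-culture or how the cells were separated.

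Cells take up iron by binding transferrin to the transferrin receptor, which carries it into endosomes, where the ferric iron is reduced and then moved to the cytosol by a divalent metal transporter. Iron that is not used at once is stored in ferritin, a shell of heavy and light chains, and is released when ferritin is carried to the lysosome. The iron regulatory proteins match these steps to supply: when iron is scarce they bind iron-responsive elements in mRNAs, which stabilises the transferrin receptor mRNA and blocks translation of ferritin mRNA. The ferritin response to iron is therefore largely not visible in mRNA levels. Schwann cells use iron in part for the energy metabolism and lipid synthesis of myelin.

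Levels are CPM, counts scaled to library size with TMM factors, with mean ± SD over 3 libraries, and differences are log2 fold changes ± standard error (SE) from edgeR's fit of all 12 libraries. All 8 members passed the filter on low counts, with 491 to 21164 counts per library. Measured per length, in the authors' FPKM averaged over the 12 libraries, Fth1 stood highest with 1227 FPKM. Tfrc followed with 73.9 FPKM, Ncoa4 with 69.5, Fbxl5 with 27.0, Aco1 with 21.8, Ireb2 with 15.9, Steap3 with 14.5 and Slc11a2 with 7.55 FPKM.

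Schwann cell identity was only partly visible in the markers. Of 17 Schwann markers found in the table, Sox10, the lineage's transcription factor, had 1 count in all libraries together, while Erbb3, the neuregulin co-receptor, averaged 10.9 CPM in BxTAM, 15.2 in MiaTAM, 12.9 in MDM co-culture and 7.14 in cells alone. Of 26 macrophage markers, 20 stayed under 1 CPM in every group. Tyrobp and C1qa had no count in any library, which allows up to 0.181 CPM in the shallowest one, and Ptprc had at most 2 counts in a group. The summed level of the 26 markers ran from 60.8 to 62.3 CPM in BxTAM, from 66.9 to 71.2 in MiaTAM and from 63.0 to 69.5 in MDM co-culture, against 28.3 to 31.3 CPM in cells alone, and most of it was Itgax (37.6, 41.4 and 46.2 CPM on average, against 17.2). Without Itgax the sum ran from 23.2 to 24.9 CPM in BxTAM, from 26.6 to 28.3 in MiaTAM and from 19.6 to 21.1 in MDM co-culture, against 11.4 to 13.0 CPM in cells alone. In such bulk samples fewer cells of a type and less RNA per cell cannot be told apart, nor a response of Schwann cells from RNA of cells left over from the co-culture.

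Tfrc lay at similar levels in both TAM co-cultures and in cells alone, and well above them with MDM. The windows before the start of Tfrc, Steap3 and Fbxl5 are shown because these 3 members differed most between groups. Each holds the 250 bases before the start, read 5′ to 3′ on the gene's strand, from RefSeq on GRCr8, which has an entry for 7 of the 8 members. Capitals mark 3 short motifs searched on both strands: ACGTG, the core of hypoxia response elements, CACGTG, the E-box bound by MYC, which contains ACGTG, and TGACG, the core of cAMP response elements.
Tfrc, chr11:81690319-81690568, minus strand: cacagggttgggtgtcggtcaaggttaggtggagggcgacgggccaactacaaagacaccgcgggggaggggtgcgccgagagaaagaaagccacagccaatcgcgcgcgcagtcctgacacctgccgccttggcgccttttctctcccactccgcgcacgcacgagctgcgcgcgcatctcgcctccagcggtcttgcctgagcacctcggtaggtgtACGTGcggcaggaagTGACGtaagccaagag
Steap3, chr13:33944357-33944606, minus strand: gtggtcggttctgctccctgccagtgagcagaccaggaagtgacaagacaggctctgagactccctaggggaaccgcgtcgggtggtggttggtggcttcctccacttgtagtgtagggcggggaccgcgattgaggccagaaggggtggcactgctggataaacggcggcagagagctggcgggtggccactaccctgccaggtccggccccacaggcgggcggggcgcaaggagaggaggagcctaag
Fbxl5, chr14:71521349-71521598, plus strand: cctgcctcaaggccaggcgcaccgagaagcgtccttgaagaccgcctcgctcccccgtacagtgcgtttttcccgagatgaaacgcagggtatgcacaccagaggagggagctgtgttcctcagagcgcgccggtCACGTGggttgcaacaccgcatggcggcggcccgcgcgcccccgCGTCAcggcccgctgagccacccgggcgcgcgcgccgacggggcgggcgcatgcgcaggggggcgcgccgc
In the Tfrc window ACGTG began at base -31 and TGACG at base -16, counted back from the start, and CACGTG did not occur. The Fbxl5 window held CACGTG at -115 and TGACG on the reverse strand at -71, and the Steap3 window held none of the 3. Over all 33469 windows of the same length in the RefSeq table, 16.6% held ACGTG, 5.59% CACGTG and 18.2% TGACG. These matches describe the letters only.

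Among the uptake genes, Tfrc (ENSRNOG00000001766, chromosome 11, 71397383 to 71419223 of Rnor_6.0) encodes the receptor for transferrin-bound iron. Its level was 270.4, 266 and 269.8 CPM in the 3 BxTAM libraries, 287, 238 and 265 CPM in the MiaTAM libraries, 592, 575 and 615 CPM in the MDM libraries, and 299, 283 and 295 CPM in cells alone. Every MDM library lay far above every library of the other 3 groups, and the next group in order, cells alone, lay above BxTAM without overlap but overlapped MiaTAM.

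Against cells alone, Tfrc was 2.03-fold higher with MDM (1.02 ± 0.05). The 2 TAM co-cultures lay 54.8% (BxTAM, -1.14 ± 0.05) and 55.6% (MiaTAM, -1.17 ± 0.05) below MDM co-culture. Against cells alone they differed by only -0.12 ± 0.05 (BxTAM) and -0.15 ± 0.05 (MiaTAM). Their difference from one another was -0.03 ± 0.05 for MiaTAM against BxTAM, with overlapping libraries. Comparisons that use the same MDM or the same untreated libraries share their error, so they are set side by side here and not counted as separate support.

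**Figure D1:**
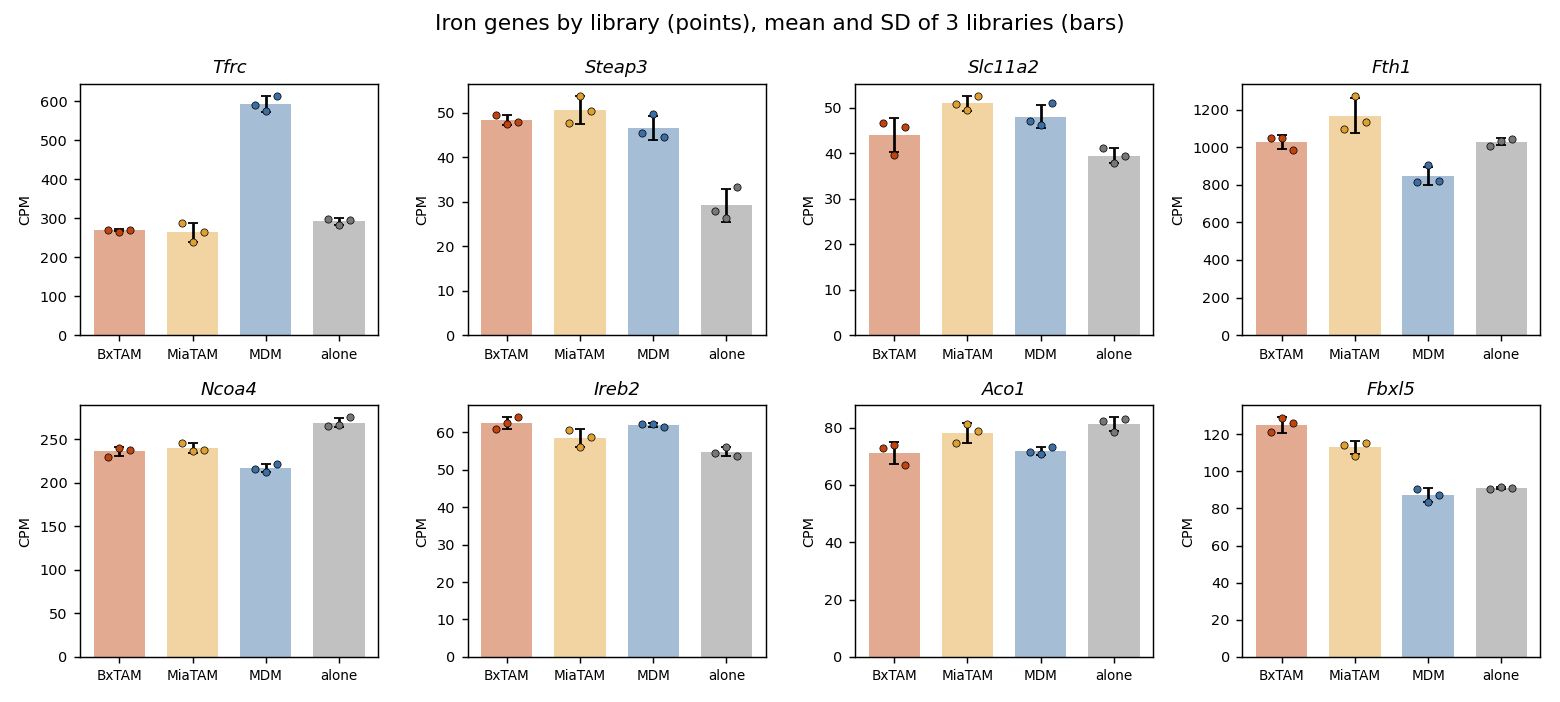
Level of each of the 8 iron genes in CPM on axes that start at 0, in BxTAM, MiaTAM and MDM co-culture and in Schwann cells alone, with a point per library and bars for mean and SD of 3 libraries. Tfrc stands out in the MDM libraries (575 to 615 CPM), Steap3 is lower in cells alone (26.3 to 33.3 CPM) than in every co-culture library, and Fbxl5 is higher in both TAM groups.

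Steap3 (ENSRNOG00000049471, chromosome 13, 36257112 to 36290531) encodes the endosomal reductase that turns transferrin-delivered ferric iron into the ferrous form. It had 49.6, 47.6 and 48.0 CPM in BxTAM, 47.7, 53.9 and 50.5 in MiaTAM, 45.4, 49.7 and 44.6 in MDM co-culture, and 27.9, 26.3 and 33.3 CPM in cells alone. All 9 co-culture libraries exceeded the 3 libraries of cells alone, and the 3 co-culture groups overlapped one another. The differences from cells alone were 0.73 ± 0.08 for BxTAM, 0.80 ± 0.07 for MiaTAM and 0.68 ± 0.08 for MDM, or 1.66-, 1.74- and 1.60-fold. Unlike Tfrc, Steap3 differed little between the TAM and MDM co-cultures (0.06 ± 0.07 for BxTAM and 0.12 ± 0.07 for MiaTAM against MDM).

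Slc11a2 (ENSRNOG00000019550, chromosome 7, 142025815 to 142063212) encodes DMT1, the transporter that moves ferrous iron out of the endosome, and some of its transcripts carry an iron-responsive element that the table does not count apart. Its level was 46.6, 39.7 and 45.8 CPM in BxTAM, 50.8, 49.5 and 52.7 in MiaTAM, 47.1, 46.2 and 51.1 in MDM co-culture, and 41.2, 37.9 and 39.5 CPM in cells alone. MiaTAM and MDM libraries all lay above cells alone (0.37 ± 0.06 and 0.29 ± 0.06), whereas BxTAM overlapped it through 1 low library (0.16 ± 0.06). In the order MiaTAM, MDM, BxTAM, cells alone, each group overlapped the next.

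Of the storage genes, the ferritin heavy chain was lowest with MDM, where Tfrc was highest. Fth1 (ENSRNOG00000022619, chromosome 1, 226030938 to 226033228) encodes the ferritin heavy chain, which oxidises iron for storage. It had 1050.4, 1050.3 and 988 CPM in BxTAM, 1097, 1275 and 1134 in MiaTAM, 816, 903 and 823 in MDM co-culture, and 1009, 1031 and 1046 CPM in cells alone. The MDM libraries were the 3 lowest and the MiaTAM libraries the 3 highest, while BxTAM and cells alone overlapped. Fth1 was 17.6% lower in MDM co-culture than in cells alone (-0.28 ± 0.05). Relative to MDM it was 21.5% higher in BxTAM (0.28 ± 0.05) and 37.9% higher in MiaTAM (0.46 ± 0.05). The gene has processed copies elsewhere in the genome that can share its reads, so its level is uncertain.

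**Figure D2:**
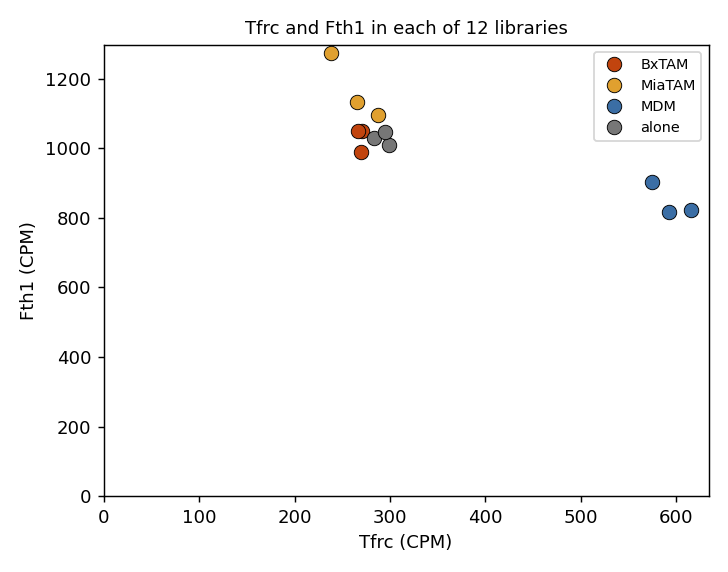
Fth1 level against Tfrc level, both in CPM and both axes from 0, with a point for each of the 12 libraries coloured by group. The 3 MDM libraries sit apart at high Tfrc (575 to 615 CPM) and low Fth1 (816 to 903 CPM), and the other 9 libraries lie together at 238 to 299 CPM of Tfrc.

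Ncoa4 (ENSRNOG00000019768, chromosome 16, 8302950 to 8323293) encodes the receptor that carries ferritin to the lysosome for iron release. Its level was 229.6, 240.0 and 238 CPM in BxTAM, 246, 236 and 237 in MiaTAM, 216, 212 and 221 in MDM co-culture, and 265, 266 and 275 CPM in cells alone. Cells alone were highest and MDM lowest, neither overlapping the TAM groups between them, which overlapped each other. Against cells alone the differences were -0.19 ± 0.04 for BxTAM, -0.17 ± 0.04 for MiaTAM and -0.31 ± 0.04 for MDM.

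The genes of the iron regulatory proteins differed by small amounts and in opposite directions. Ireb2 (ENSRNOG00000013271, chromosome 8, 59420123 to 59501118) encodes IRP2, which is degraded when iron is plentiful. It had 61.0, 62.6 and 64.0 CPM in BxTAM, 60.7, 56.0 and 58.8 in MiaTAM, 62.3, 62.1 and 61.4 in MDM co-culture, and 54.6, 56.1 and 53.7 CPM in cells alone. BxTAM and MDM libraries exceeded cells alone by 0.19 ± 0.05 and 0.18 ± 0.05, and MiaTAM overlapped cells alone (0.10 ± 0.05).

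Aco1 (ENSRNOG00000005849, chromosome 5, 56425024 to 56481218) encodes IRP1, which is a cytosolic aconitase when it holds an iron-sulfur cluster and binds RNA when it does not. Its level was 72.9, 73.8 and 66.8 CPM in BxTAM, 74.6, 81.4 and 78.7 in MiaTAM, 71.5, 70.8 and 73.3 in MDM co-culture, and 82.2, 78.5 and 82.9 CPM in cells alone. BxTAM and MDM lay below cells alone without overlap (-0.19 ± 0.05 and -0.18 ± 0.05), and MiaTAM overlapped cells alone (-0.05 ± 0.05). Ireb2 and Aco1 thus separated the same 2 co-cultures from cells alone, one upward and the other downward, by 14.1% at most.

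Fbxl5 (ENSRNOG00000005261, chromosome 14, 71852682 to 71891143) encodes the iron-sensing ubiquitin ligase subunit that marks IRP2 for degradation. It had 121, 129 and 126 CPM in BxTAM, 114, 108 and 115 in MiaTAM, 90.7, 83.5 and 87.4 in MDM co-culture, and 90.3, 91.8 and 90.9 CPM in cells alone. Both TAM groups lay above both other groups with no overlap, BxTAM above MiaTAM, while MDM overlapped cells alone. Relative to MDM co-culture Fbxl5 was 43.9% higher in BxTAM (0.52 ± 0.04) and 29.1% higher in MiaTAM (0.37 ± 0.04). The MDM difference from cells alone was -0.06 ± 0.04.

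**Figure D3:**
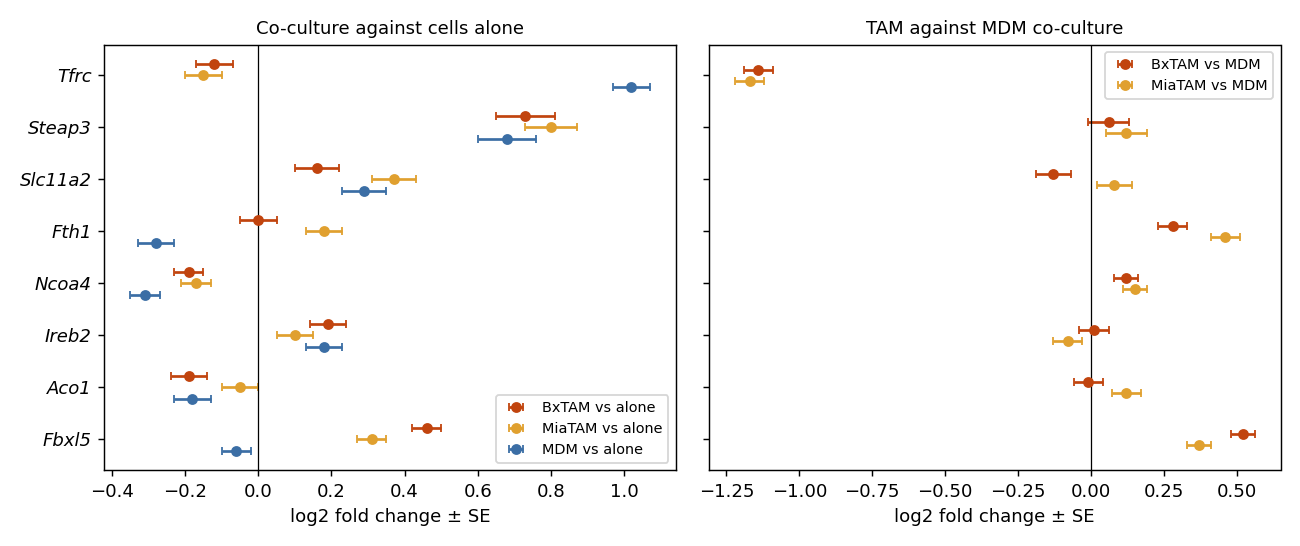
Log2 fold change with its standard error for the 8 genes, on the left for each co-culture against Schwann cells alone and on the right for both TAM co-cultures against MDM co-culture. Tfrc is the member furthest from 0 on the right (-1.14 and -1.17), and on the left Tfrc with MDM (1.02) and Steap3 in all 3 co-cultures (0.68 to 0.80) lie furthest from 0.

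Counted by edgeR's quasi-likelihood test at a Benjamini-Hochberg adjusted p under 0.05, members are set beside all 12360 tested genes, and nothing is read from these counts. Against cells alone 7 members were called in BxTAM, 6 in MiaTAM and 7 in MDM, where 60.9%, 65.1% and 65.1% of all genes were called. Against MDM, 4 members were called in BxTAM and 4 in MiaTAM, where 34.7% and 41.0% of all genes were called. Between MiaTAM and BxTAM 4 were called, where 24.2% of all genes were. Libraries did not overlap for 6 members in BxTAM, 5 in MiaTAM and 7 in MDM against cells alone (65.9%, 67.2% and 68.9% of all genes), for 4 in BxTAM and 6 in MiaTAM against MDM (47.9% and 49.0%), and for 5 in MiaTAM against BxTAM (38.6%). The count of 4 called between MiaTAM and BxTAM fell to 3 without BxTAM replicate 1, 1 without BxTAM replicate 2, 2 without BxTAM replicate 3 and 2 without MiaTAM replicate 2 or 3. The BxTAM count against cells alone was 5 or 6 whenever 1 library was left out, because Tfrc, Slc11a2 or both lost their call. The calls of Tfrc in MiaTAM against cells alone (without library 1 or 3 of cells alone, or MiaTAM replicate 2) and of Ncoa4 in BxTAM against MDM (without MDM replicate 2 or BxTAM replicate 2, 3 members each) were lost likewise. The median log2 fold change of the 8 members was 0.08, 0.14 and 0.06 for BxTAM, MiaTAM and MDM against cells alone, beside 0.00, -0.01 and -0.01 for all tested genes.

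Light chain ferritin differed from heavy chain ferritin. Ftl1, the light chain gene that helps iron mineralise inside the shell and is not one of the 8 members, had 854, 781 and 764 CPM in BxTAM, 892, 994 and 917 in MiaTAM, 984, 1117 and 1028 in MDM co-culture, and 351, 348 and 348 CPM in cells alone. It rose 2.29-fold in BxTAM (adjusted p = 6.3e-14), 2.67-fold in MiaTAM (adjusted p = 3.9e-15) and 2.99-fold in MDM co-culture (adjusted p = 1.5e-15 by edgeR's test), each against cells alone. Relative to MDM it fell in BxTAM (-0.38 ± 0.05, adjusted p = 6.2e-06). In MiaTAM against MDM the value was -0.16 ± 0.05, a call lost without MDM replicate 2 (-0.11), MiaTAM replicate 1 (-0.13) or MiaTAM replicate 3 (-0.15). Fth1 stood at 1.00-, 1.14- and 0.824-fold in the same comparisons with cells alone, and the difference between the 2 chains was not tested. Ftl1 comes from gene lists chosen with earlier results of these data known, so its p-values are descriptions too.

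The light chain is spread over near-identical rows in this table, so the level of Ftl1 by itself is uncertain. Of 9 rows described as ferritin light chain, 8 had counts, and the 7 with more than a few counts stood 2.05- to 2.51-fold higher in BxTAM, 2.61- to 2.97-fold in MiaTAM and 2.71- to 3.04-fold in MDM than in cells alone. The sum of all these rows was 2352 ± 82.8 CPM in BxTAM, 2818 ± 149.5 in MiaTAM and 3047 ± 166 in MDM co-culture, against 1031 ± 17.0 CPM in cells alone (SD, n = 3 each). The macrophage marker sum given above was also higher in every co-culture than in cells alone, with and without Itgax, and its part in this difference was not tested. Whether reads from the co-cultured macrophages, whose species is unstated, were counted in these light chain rows was not tested.

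**Figure D4:**
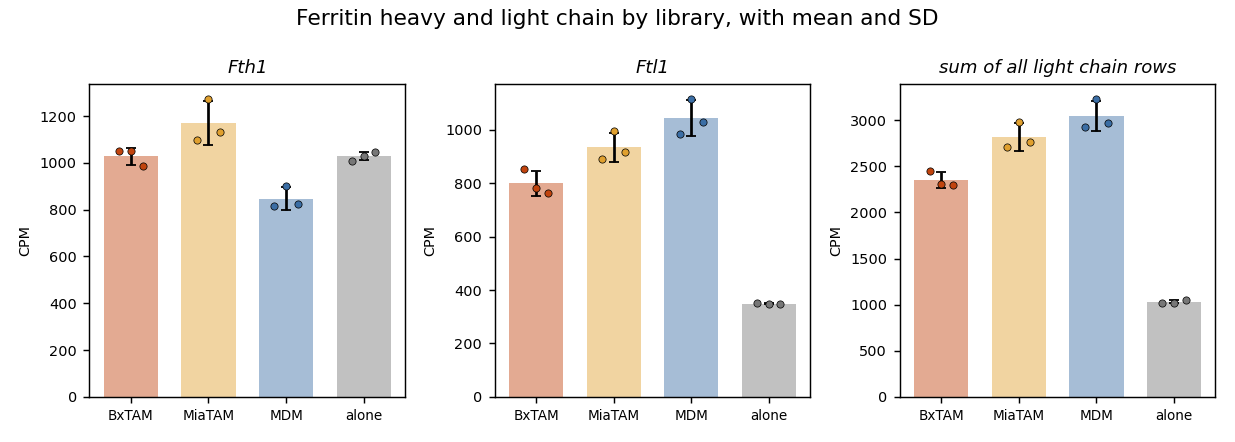
Level in CPM of the ferritin heavy chain gene Fth1, the light chain gene Ftl1 and the sum of all rows described as ferritin light chain, with a point per library and bars for mean and SD of 3 libraries, axes from 0. The light chain sum is 2303 to 3236 CPM in the co-culture libraries and 1019 to 1050.4 CPM in cells alone, while Fth1 shows no such step.

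Of the remaining pathway, 118 listed genes were found and 106 tested. Against cells alone, 27 rose and 31 fell in BxTAM, 34 rose and 29 fell in MiaTAM, and 32 rose and 39 fell in MDM co-culture, or 54.7%, 59.4% and 67.0% of those tested. Of all tested genes, 30.0% rose and 30.9% fell in BxTAM, 31.4% and 33.7% in MiaTAM, and 32.0% and 33.1% in MDM. With upper-quartile scaling 41 listed genes rose and 27 fell in BxTAM, 47 and 21 in MiaTAM, and 35 and 31 in MDM, so the balance turned in BxTAM and MDM. That scaling tilted all tested genes the same way, with 4348 higher and 3213 lower in BxTAM, 4664 and 3446 in MiaTAM, and 4579 and 3497 in MDM. Relative to MDM, 23 rose and 18 fell in BxTAM and 31 rose and 18 fell in MiaTAM, or 38.7% and 46.2%. Of all tested genes, 17.4% rose and 17.3% fell in BxTAM and 19.8% and 21.1% in MiaTAM. Between MiaTAM and BxTAM 14 rose and 12 fell, or 24.5%, beside 11.0% and 13.3% of all tested genes. With upper-quartile scaling 21 listed genes rose and 10 fell there, beside 1621 and 1406 of all tested genes. Over the 6 comparisons the median of the pooled lists was within -0.01 to 0.06, beside -0.01 to 0.00 for all genes, and medians of single lists ran from -0.17 to 0.32. Genes named below as rising or falling did so at an adjusted p of 0.00453 or less in edgeR's test.

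In the list of the transferrin cycle and other uptake, 5 of 18 tested genes rose and 4 fell in BxTAM, 8 rose and 4 fell in MiaTAM, and 5 rose and 5 fell in MDM, each against cells alone. Steap1 and Steap2, of the same gene family as Steap3, were not higher in any co-culture than in cells alone by the test. Steap1 fell in BxTAM (-0.57 ± 0.05, adjusted p = 1.3e-09), MiaTAM (-0.63 ± 0.05, adjusted p = 2.4e-10) and MDM co-culture (-0.75 ± 0.05, adjusted p = 1.5e-11 by edgeR's test). Steap2 averaged 199 ± 4.47 CPM in BxTAM, 183 ± 6.88 in MiaTAM and 138 ± 1.42 in MDM co-culture, against 198 ± 6.61 CPM in cells alone. It fell with MDM (-0.52 ± 0.04, adjusted p = 3.5e-10 by edgeR's test) and was higher in BxTAM and MiaTAM than with MDM (0.53 ± 0.04 and 0.41 ± 0.04; adjusted p = 2.1e-09 and 9.4e-08 by edgeR's test). Steap2 was thus lowest with MDM, where Tfrc was highest.

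Slc22a17, a receptor for the siderophore-binding protein lipocalin, rose by 1.08 ± 0.11 in BxTAM, 1.08 ± 0.11 in MiaTAM and 1.35 ± 0.11 in MDM co-culture against cells alone. Mcoln1, an endolysosomal channel that passes iron, fell in all 3 (-0.46 ± 0.06, -0.31 ± 0.06 and -0.59 ± 0.06). Tfr2, the second transferrin receptor, rose in BxTAM and MiaTAM (0.71 ± 0.15 and 0.85 ± 0.15) and had 0.49 ± 0.15 in MDM co-culture, a call lost without library 3 of cells alone (0.38) or MDM replicate 3 (0.39). Tf, the gene of transferrin itself, averaged 47.5 ± 2.39 CPM in BxTAM, 48.8 ± 1.32 in MiaTAM, 45.9 ± 3.04 in MDM co-culture and 44.4 ± 1.55 CPM in cells alone. Slc39a14, a carrier for iron not bound to transferrin, averaged 75.6 to 77.3 CPM over the groups and was not called in any comparison.

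In the storage, export and systemic list, 4 of 15 tested genes rose and 3 fell in BxTAM, 6 rose and 4 fell in MiaTAM, and 9 rose and 2 fell in MDM, each against cells alone (list medians 0.11, 0.10 and 0.28). Relative to MDM, 1 rose and 5 fell in BxTAM and 1 rose and 7 fell in MiaTAM. These counts use the same MDM libraries as the MDM count against cells alone, so they share their error. The copper ferroxidases that load exported iron onto transferrin were among those that fell. Heph, encoding hephaestin, averaged 59.6 ± 3.66 CPM in BxTAM, 58.2 ± 4.54 in MiaTAM and 82.3 ± 3.74 in MDM co-culture, against 68.9 ± 1.24 CPM in cells alone. Its changes relative to MDM were -0.46 ± 0.06 and -0.50 ± 0.06 (adjusted p = 2.4e-06 and 8.6e-07 by edgeR's test). Cp, encoding ceruloplasmin, averaged 26.4 ± 0.174 CPM in BxTAM, 19.2 ± 2.62 in MiaTAM and 32.4 ± 0.460 in MDM co-culture, against 26.6 ± 1.68 CPM in cells alone. It fell relative to MDM by 0.30 ± 0.08 in BxTAM and by 0.75 ± 0.08 in MiaTAM on the log2 scale. Against cells alone, BxTAM differed by -0.01 ± 0.08, MiaTAM by -0.47 ± 0.08 and MDM by 0.28 ± 0.08. Cp also fell in MiaTAM relative to BxTAM (-0.45 ± 0.08, adjusted p = 5.5e-04 by edgeR's test).

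Smad1, a transducer of the BMP signal that sets hepcidin in liver, rose in BxTAM (0.21 ± 0.04), MiaTAM (0.18 ± 0.04) and MDM co-culture (0.28 ± 0.04) against cells alone. Hamp, the hepcidin gene itself, had no count in any library, which allows 0.139 to 0.181 CPM per library (3 counts, counting error only). A row the table describes as similar to the ferroportin gene, LOC100911874 on chromosome 9, had 86 counts over the BxTAM libraries, 113 over MiaTAM and 102 over MDM co-culture, against 58 over cells alone, and it is not one of the members.

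Partners of FBXL5 and NCOA4 moved in both directions. Of 11 tested genes, 3 rose and 3 fell in BxTAM, 3 rose and 4 fell in MiaTAM and 3 rose and 5 fell in MDM, each against cells alone. Cul1, the scaffold of the ligase that FBXL5 serves, fell in BxTAM (-0.33 ± 0.05), MiaTAM (-0.49 ± 0.06) and MDM co-culture (-0.64 ± 0.06). Skp1, the adaptor of the same ligase, fell in MiaTAM (-0.35 ± 0.08) and MDM co-culture (-0.47 ± 0.08), and had -0.25 ± 0.08 in BxTAM, a call lost without library 3 of cells alone (-0.15). Gabarap, an autophagosome protein, rose in all 3 co-cultures (0.31 ± 0.04, 0.41 ± 0.04 and 0.29 ± 0.04). Rb1cc1, an autophagy-initiating protein, rose in BxTAM and MDM co-culture (0.54 ± 0.06 and 0.33 ± 0.06 against cells alone) and was lower in MiaTAM than in BxTAM (-0.58 ± 0.06, adjusted p = 5.3e-06 by edgeR's test).

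Among other mRNAs known for an iron-responsive element, Epas1, encoding the hypoxia factor HIF-2alpha, rose in BxTAM (1.15 ± 0.11), MiaTAM (1.18 ± 0.11) and MDM co-culture (1.41 ± 0.11), with 8.03 ± 0.688, 8.23 ± 0.391 and 9.62 ± 0.219 CPM against 3.62 ± 0.306 CPM in cells alone. Of the 5 tested genes of that list, 2 rose and 0 fell in BxTAM, 2 rose and 1 fell in MiaTAM, and 2 rose and 1 fell in MDM. The kinase gene Cdc42bpa fell in MDM co-culture (-0.21 ± 0.04) and was higher in BxTAM than in MDM co-culture (0.29 ± 0.04). Pfn2, an actin-binding protein gene, stayed at or under 3.02 CPM on average.

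Of the tested genes of mitochondrial iron and iron-sulfur cluster assembly, 5 of 34 rose and 15 fell in BxTAM, 8 rose and 11 fell in MiaTAM, and 7 rose and 15 fell in MDM, each against cells alone (list medians -0.13, -0.12 and -0.08). Glrx3, a cytosolic glutaredoxin that carries clusters, fell by 0.49 ± 0.05 in BxTAM, by 0.58 ± 0.05 in MiaTAM and by 0.69 ± 0.05 in MDM on the log2 scale. Hspa9, the mitochondrial chaperone that hands clusters on, fell by 0.42 ± 0.04, by 0.69 ± 0.04 and by 0.49 ± 0.04 in the same order. Nubp1, of the cytosolic assembly machinery, fell by 0.65 ± 0.07, by 0.52 ± 0.07 and by 0.69 ± 0.07, and Abcb8, a mitochondrial transporter, by 0.45 ± 0.05, by 0.50 ± 0.05 and by 0.54 ± 0.05.

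In the heme list, 8 of 23 tested genes rose and 6 fell in BxTAM, 7 rose and 5 fell in MiaTAM and 6 rose and 11 fell in MDM. Abcb6, a porphyrin transporter, averaged 14.3 ± 0.0816 CPM in BxTAM, 17.6 ± 1.75 in MiaTAM and 19.7 ± 1.86 in MDM co-culture, against 38.4 ± 1.38 CPM in cells alone, the largest fall among the iron genes named here (-1.43 ± 0.08, -1.13 ± 0.08 and -0.96 ± 0.07). Slc48a1, which moves heme out of the lysosome, rose in each (0.39 ± 0.07, 0.70 ± 0.07 and 0.77 ± 0.07), as did the heme transporter family gene Flvcr2 (0.78 ± 0.10, 0.79 ± 0.10 and 0.72 ± 0.10). Pgrmc1, a heme-binding membrane protein gene, fell in each (-0.39 ± 0.04, -0.54 ± 0.04 and -0.46 ± 0.04). Hmox1, the heme oxygenase that frees iron from heme, averaged 52.1 CPM in BxTAM, 49.7 in MiaTAM and 52.0 in MDM co-culture, against 46.1 CPM in cells alone.

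**Figure D5:**
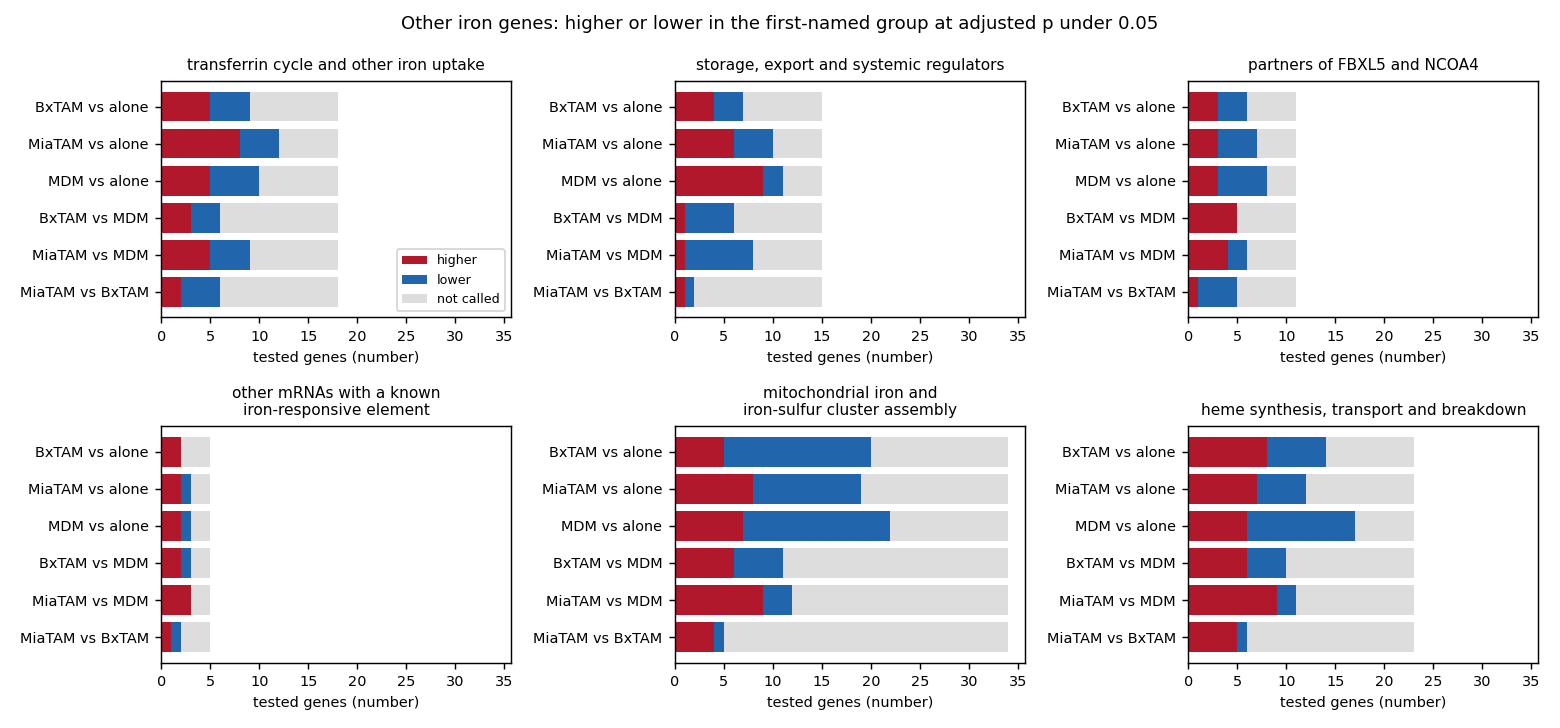
Number of tested genes of each of the 6 lists that were higher (red), lower (blue) or not called (grey) in the first-named group, at an adjusted p under 0.05 in edgeR's quasi-likelihood test with TMM scaling. Bars count genes, so their length also follows list size, and the assembly list is the largest. It has the longest blue bars (15 of 34 in BxTAM and MDM against cells alone, where 30.9% and 33.1% of all tested genes were lower). The heme list has 11 of 23 lower in MDM against cells alone. In the storage list red exceeds blue for MDM against cells alone (9 and 2 of 15). Of all tested genes, 32.0% were higher and 33.1% lower in that comparison. In the same list blue exceeds red for BxTAM against MDM (5 and 1) and MiaTAM against MDM (7 and 1). Of all tested genes, 17.3% were lower and 17.4% higher in BxTAM against MDM, and 21.1% and 19.8% in MiaTAM against MDM. The same MDM libraries enter all of these comparisons, so they share their error.

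The genes whose levels ran most like Tfrc over the 12 libraries, by Pearson's r of log2 CPM, were Egr1, an immediate early transcription factor (r = 0.987), Hsp90b1, an endoplasmic reticulum chaperone (0.981), Sdf4, a calcium-binding protein (0.967), Pdia4, a disulfide isomerase (0.957), and Asph, an aspartate hydroxylase (0.956). Those that ran most opposite were RGD1562618 (-0.994), Csf1, the macrophage growth factor (-0.985), Atp13a4, a P-type ATPase (-0.980), Tspan5, a tetraspanin (-0.979), and Cxcl3, a chemokine (-0.978). Egr1 averaged 90.2 CPM in BxTAM, 101 in MiaTAM and 260.0 in MDM co-culture, against 107 CPM in cells alone. Csf1 averaged 202, 212 and 119 CPM in the same co-cultures, against 185 CPM in cells alone. In all 10 genes, as in Tfrc, the MDM mean lay furthest from the other 3 group means. The genes were chosen by their r with Tfrc, so this pattern comes largely with the choice and is no separate result. The 12 libraries fall into 4 groups, so r is a description and carries no p-value.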

How the data were processed

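Per the labels' protocols, total RNA was column-purified and prepared for stranded mRNA sequencing. HISAT2, StringTie 1.3.0, CASAVA and the build Rnor_6.0 are named, per the submitters' processing notes. The sources used here do not give the counting tool or strand setting, so antisense overlaps are uncertain. Per the file headers, each gene has read counts and the authors' FPKM, which is scaled by gene length and library total. Counts were tested in edgeR 4.0.16 (R 4.3.3): filterByExpr, TMM (factors 0.98 to 1.01), 1 quasi-likelihood fit over 12 libraries with 1 mean per group, Benjamini-Hochberg adjustment over 12360 genes, and 6 comparisons. The SE is the log2 change over the root of F. FPKM was used only to rank levels between genes. Alternatives were other scalings, DESeq2 1.42.0, no filter, 2-group fits, a replicate block and leaving out each library. Scripts were checked on simulated data for MDM against cells alone only. The test called 72 of 99 genes changed 1.5-fold, 95 of 99 changed 2-fold and 7 of 12066 unchanged genes. Smaller changes were not simulated. Listed genes matched by symbol (113) or RefSeq synonym (5). Named are all members, up to 4 genes per list with the smallest adjusted p, Ftl1, Tf, Tfr2, Hamp, Heph, Cp, Hmox1, Epas1 and Slc39a14, and the 5 genes most and least like Tfrc. One gene this rule names is not reported here. Members and lists were chosen with earlier results of these data known.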

Additional observations from a re-analysis of the deposited data

How the results depend on the processing

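Over the 48 member differences (8 genes in 6 comparisons) and 18 alternative settings, no called direction turned, and 10 of the 48 calls changed under at least 1 setting, all of them differences between -0.16 and 0.21 on the log2 scale. Tfrc stayed between -1.17 and -1.12 for BxTAM and between -1.24 and -1.10 for MiaTAM against MDM, and between 1.00 and 1.08 for MDM against cells alone. Its smaller differences from cells alone lost their call with upper-quartile scaling (-0.07 in BxTAM and -0.07 in MiaTAM). The call was also lost in BxTAM with DESeq2's size factors or test (-0.12), and in MiaTAM with the 2-group fit. All 72 counts of called genes from the 6 settings that kept every library were within 1.5 times the reported ones. Leaving out 1 library gave 1933 to 3113 called genes for MiaTAM against BxTAM, beside 2997 with all. The low counts were those without BxTAM replicate 2 (1978), BxTAM replicate 3 (1976) or MiaTAM replicate 2 (1933), and the cause was not tested. The replicate number as a block gave 4275 called genes for BxTAM against MDM, 5059 for MiaTAM against MDM and 8046 for MDM against cells alone. Deviations of same-numbered libraries correlated by -0.13 to 0.09, none of 18 pairs over 0.1, so no pairing by number was visible. A small shared effect would not be seen this way, and the labels do not state whether libraries were paired. The block ended the member call of Aco1 in MiaTAM against BxTAM (0.14), a call lost in 9 settings in all.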
